A study of Mus musculus with 15 samples.

Results

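The 8 genes described here, Fabp4, Adipoq, Plin1, Plin4, Cfd, Cidec, Car3 and Lep, are markers of adipocytes, and they were followed through 15 RNA-seq libraries of mouse distal jejunum. They were chosen by symbol as known adipocyte genes, and all 8 were found among the 26844 genes of the deposited table. The libraries came from male C57BL/6 mice aged 13 to 15 weeks, either wild type (WT) or Aster-B/C global knockouts (KO), a deletion not limited to the intestine. Gramd1b and Gramd1c encode these sterol carriers, which bring cell surface cholesterol to the endoplasmic reticulum. Every mouse ate a diet with 0.08% cholesterol, which served as the control diet, and part of the mice had 0.01% ezetimibe added to it, a drug that blocks cholesterol uptake by enterocytes through NPC1L1. The 4 groups were WT on control diet (4 libraries), KO on control diet (3 libraries), WT on ezetimibe (4 libraries) and KO on ezetimibe (4 libraries). The sources used here do not name the deleted exons, nor do they say that the libraries of a group came from separate animals, so the p-values measure only the spread between these libraries.

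White adipocytes store triacylglycerol in 1 large lipid droplet, which is coated by perilipins and enlarged by CIDE proteins, and they secrete adipokines such as adiponectin, leptin and adipsin. Along the gut they lie in the mesentery, the sheet of tissue that carries vessels to the bowel wall, while the lining of the jejunum itself consists mostly of enterocytes, which make other members of the same protein families. In bulk RNA a level that differs between libraries can come from a different number of cells or from a different amount of RNA per cell, and these cannot be told apart.

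Recovered read totals ran from 13855034 to 19307079 per library. A value is a normalised count, in which 1 read is worth 0.812 to 1.17, so that 3 reads, the limit that a count of 0 allows, correspond to 2.43 to 3.50. The levels of Gramd1b and Gramd1c went with the labels, since every KO library lay below every WT library for both genes: Gramd1b was between 962 and 2086 in the KO libraries and between 2274 and 4046 in the WT libraries. The tissue label also held, with the enterocyte gene Fabp2 at a mean of 284056 over the 15 libraries.

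The sequences just upstream of the genes' starts are shown for the adipokine genes Adipoq and Lep, which varied together between libraries, and for Cidec, which did not vary with them. RefSeq's table on GRCm38.p6 held 7 start sites for 6 of the 8 genes; it had no entry for Fabp4 and Car3. Each line gives the 250 bases before the start, read 5′ to 3′ on the gene's strand, with any match to the C/EBP palindrome TTNCGNAA in capitals. Adipoq lies on the plus strand (chr16:23146286-23146535), Lep on the plus strand (chr6:29059971-29060220), and the Cidec starts on the minus strand (chr6:113435761-113436010 and chr6:113434765-113435014).
Adipoq: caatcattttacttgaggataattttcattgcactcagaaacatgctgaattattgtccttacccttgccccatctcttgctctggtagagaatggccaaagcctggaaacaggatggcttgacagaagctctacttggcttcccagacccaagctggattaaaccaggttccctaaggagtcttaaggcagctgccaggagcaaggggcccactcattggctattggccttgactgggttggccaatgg
Lep: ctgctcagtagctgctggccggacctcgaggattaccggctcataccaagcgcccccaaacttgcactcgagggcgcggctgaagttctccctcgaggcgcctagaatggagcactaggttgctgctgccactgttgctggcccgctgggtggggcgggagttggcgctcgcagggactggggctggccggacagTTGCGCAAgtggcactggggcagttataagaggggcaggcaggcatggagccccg
Cidec, start 1: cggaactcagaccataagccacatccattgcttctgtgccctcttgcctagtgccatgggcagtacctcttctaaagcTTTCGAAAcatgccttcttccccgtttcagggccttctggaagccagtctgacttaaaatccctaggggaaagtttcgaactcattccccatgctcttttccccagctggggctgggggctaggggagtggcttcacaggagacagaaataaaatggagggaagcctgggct
Cidec, start 2: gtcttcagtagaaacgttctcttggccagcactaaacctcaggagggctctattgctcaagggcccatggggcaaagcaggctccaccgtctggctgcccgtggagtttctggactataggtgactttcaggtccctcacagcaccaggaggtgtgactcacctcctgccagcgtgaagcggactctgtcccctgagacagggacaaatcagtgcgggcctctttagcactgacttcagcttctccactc

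A match to TTNCGNAA was found 55 bases before the start of Lep (TTGCGCAA) and 172 bases before start 1 of Cidec (TTTCGAAA), and in none of the other 5 windows. Over all 32851 RefSeq windows of the same length, from 250 bases before to 50 bases after a start, 2.47% held such a match on either strand. A pair of AGGTCA copies in the same direction with 1 base (N) between them, the direct repeat bound by PPARgamma, the master regulator of adipocytes, occurred in 0.0396% of all windows and in none of the 7. Neither did the 7 windows hold even a single AGGTCA (16.3% of all windows), or TATAAA (13.6%). Matches and their absence describe only these letters in these windows.

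Per length of transcript the 8 genes covered 3 orders of magnitude. Cidec averaged 1923 normalised counts per kb of its longest coding transcript, Fabp4 75.2, Cfd 35.9, Car3 28.2, Adipoq 9.01, Plin1 3.00, Plin4 2.11 and Lep 1.82. Cidec therefore stood 25.6-fold above Fabp4, the next gene, and made up 83.5% to 99.8% of the summed counts of the 8 genes in each library. For the other 7 genes the means rest largely on a few high libraries. By the median per kb over the 15 libraries, Car3 (17.2) was above Cfd (13.2), the reverse of their means. Differences between neighbours, such as Plin4 and Lep, were not tested.

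Fabp4 (ENSMUSG00000062515, chr3:10204088-10208576, mm10, minus strand) encodes the fatty acid carrier of the adipocyte cytosol. Its normalised counts in WT on control diet were 5.73, 163, 4.12 and 9.17 in replicates 1 to 4, and in KO on control diet 30.8, 262 and 106 in replicates 1 to 3. On ezetimibe they were 133, 1.88, 21.7 and 4.64 in WT, and 43.9, 100.8, 71.2 and 53.3 in KO. In each WT group 1 library stood far above the other 3, replicate 2 on control diet and replicate 1 on ezetimibe. Because of those 2 WT libraries the genotypes overlapped. The 7 KO libraries were all above the remaining 6 WT libraries. Those 6 were set apart by these same values, and no KO library was set aside, so this order does not test the genotypes. The log2 fold change of KO against WT was 2.64 ± 1.22 (SE; limma adjusted p = 0.333) on control diet and 2.13 ± 1.13 (adjusted p = 0.338) on ezetimibe. These average log2 values; edgeR's model of the recovered reads gave 1.51 (adjusted p = 0.566) and 0.76 (adjusted p = 0.735).

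Car3 (ENSMUSG00000027559, chr3:14863512-14872523, plus strand), a carbonic anhydrase abundant in fat and skeletal muscle, had the same profile. It was at 9.55, 117, 2.06 and 8.15 in WT and at 18.7, 194 and 57.4 in KO on control diet. On ezetimibe it was at 64.4, 3.76, 11.3 and 2.79 in WT and at 28.9, 76.1, 73.6 and 42.6 in KO. The same 2 WT libraries were high. The other 6 lay below every KO library, again only after 2 WT libraries were set aside by their values. The differences of 2.15 ± 1.11 (adjusted p = 0.386) and 2.25 ± 1.03 (adjusted p = 0.293) on the log2 scale did not pass the test, and by edgeR they were 1.36 (adjusted p = 0.579) and 1.45 (adjusted p = 0.475).

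Of the 3 secreted products, adipsin had the widest range. Cfd (ENSMUSG00000061780, chr10:79890853-79892655, plus strand), the gene of this complement protease, was at 0, 75.4, 1.03 and 4.08 in WT and at 12.2, 175 and 46.6 in KO on control diet, and at 59.1, 1.88, 10.4 and 9.28 in WT and 8.57, 37.5, 29.2 and 26.6 in KO on ezetimibe. The groups overlapped on both diets, and on ezetimibe KO replicate 1 was below WT replicates 3 and 4 as well. Its log2 fold change was 3.18 ± 1.26 on control diet, with an adjusted p of 0.251, and 0.98 ± 1.17 on ezetimibe, with an adjusted p of 0.67. By edgeR it was 1.90 and 0.35 (adjusted p = 0.459 and 0.894). The difference between the 2 limma values, the interaction of genotype with ezetimibe, was -2.20 ± 1.72 (adjusted p = 0.743).

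Adipoq (ENSMUSG00000022878, chr16:23146536-23158028, plus strand) encodes adiponectin, the insulin-sensitising hormone made by adipocytes. It was at 0, 22.7, 1.03 and 1.02 in WT and at 4.06, 40.7 and 14.1 in KO on control diet, and at 26.4, 0, 5.66 and 0 in WT and 19.3, 16.1, 12.8 and 10.7 in KO on ezetimibe. Outside the 2 high libraries, again set aside by their values, 5 of the 6 WT values were at or under 3 reads. Every KO value was above that limit. The log2 fold changes were 2.23 ± 1.15 (adjusted p = 0.387) on control diet and 2.06 ± 1.07 (adjusted p = 0.328) on ezetimibe, against 1.58 and 0.91 by edgeR (adjusted p = 0.556 and 0.674).

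Lep (ENSMUSG00000059201, chr6:29060220-29073877, plus strand), the gene of the satiety hormone leptin, was the lowest of the 8 per length. It was at 0.955, 20.9, 0 and 0 in WT and at 2.43, 14.5 and 9.75 in KO on control diet, and at 12.7, 0, 2.83 and 0 in WT and 3.21, 9.65, 4.67 and 7.46 in KO on ezetimibe. Its highest value came from a WT library, replicate 2 on control diet, and 2 KO libraries, replicate 1 of each diet, held no more than 3 reads of it. The log2 fold changes were 1.70 ± 1.06 (adjusted p = 0.488) and 1.34 ± 0.981 (adjusted p = 0.476), and by edgeR 0.60 and 0.73 (adjusted p = 0.859 and 0.768).

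The droplet coat proteins followed. Plin1 (ENSMUSG00000030546, chr7:79720218-79732903, minus strand), which guards the stored fat against lipases, was at 4.77, 18.2, 0 and 5.09 in WT and at 7.30, 26.2 and 5.42 in KO on control diet, and at 22.2, 0.939, 0 and 0 in WT and 7.50, 7.50, 15.2 and 6.39 in KO on ezetimibe. The control diet groups lay close together apart from the 2 high libraries. Its log2 fold changes of 1.15 ± 1.04 (adjusted p = 0.659) and 1.90 ± 0.962 (adjusted p = 0.324) did not pass, nor did edgeR's 0.85 and 0.70 (adjusted p = 0.754 and 0.751).

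Plin4 (ENSMUSG00000002831, chr17:56100591-56109803, minus strand), a coat protein of small droplets in adipocytes, was at 0.955, 24.5, 0 and 2.04 in WT and at 2.43, 32.6 and 14.1 in KO on control diet, and at 20.1, 0, 6.60 and 0 in WT and 9.64, 30.02, 18.7 and 20.2 in KO on ezetimibe. All 4 KO libraries on ezetimibe were above 3 of the 4 WT libraries. Its log2 fold change there, 2.44 ± 1.07 with an adjusted p of 0.286, was the highest of the 8 genes on ezetimibe, and on control diet it was 1.78 ± 1.15 (adjusted p = 0.513). By edgeR it was 1.58 on ezetimibe and 1.17 on control diet (adjusted p = 0.44 and 0.672).

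Cidec (ENSMUSG00000030278, chr6:113424634-113435760, minus strand) encodes the protein that fuses lipid droplets, long known as a fat-specific protein. It was at 4142, 2456, 4069.5 and 3720.1 in WT and at 3419, 3763 and 2588 in KO on control diet, and at 2621, 3185, 2879 and 3705 in WT and 1980.1, 3162, 4015 and 3896 in KO on ezetimibe. Its values differed by at most 2.09-fold over the 15 libraries and the groups overlapped throughout. WT replicate 2 on control diet and WT replicate 1 on ezetimibe, the WT libraries in which the other 7 genes were highest, were the lowest of their groups for Cidec. The log2 fold changes were -0.13 ± 0.232 (95% interval -0.62 to 0.36, adjusted p = 0.853) on control diet and 0.03 ± 0.215 (-0.42 to 0.49, adjusted p = 0.948) on ezetimibe.

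**Figure D1:**
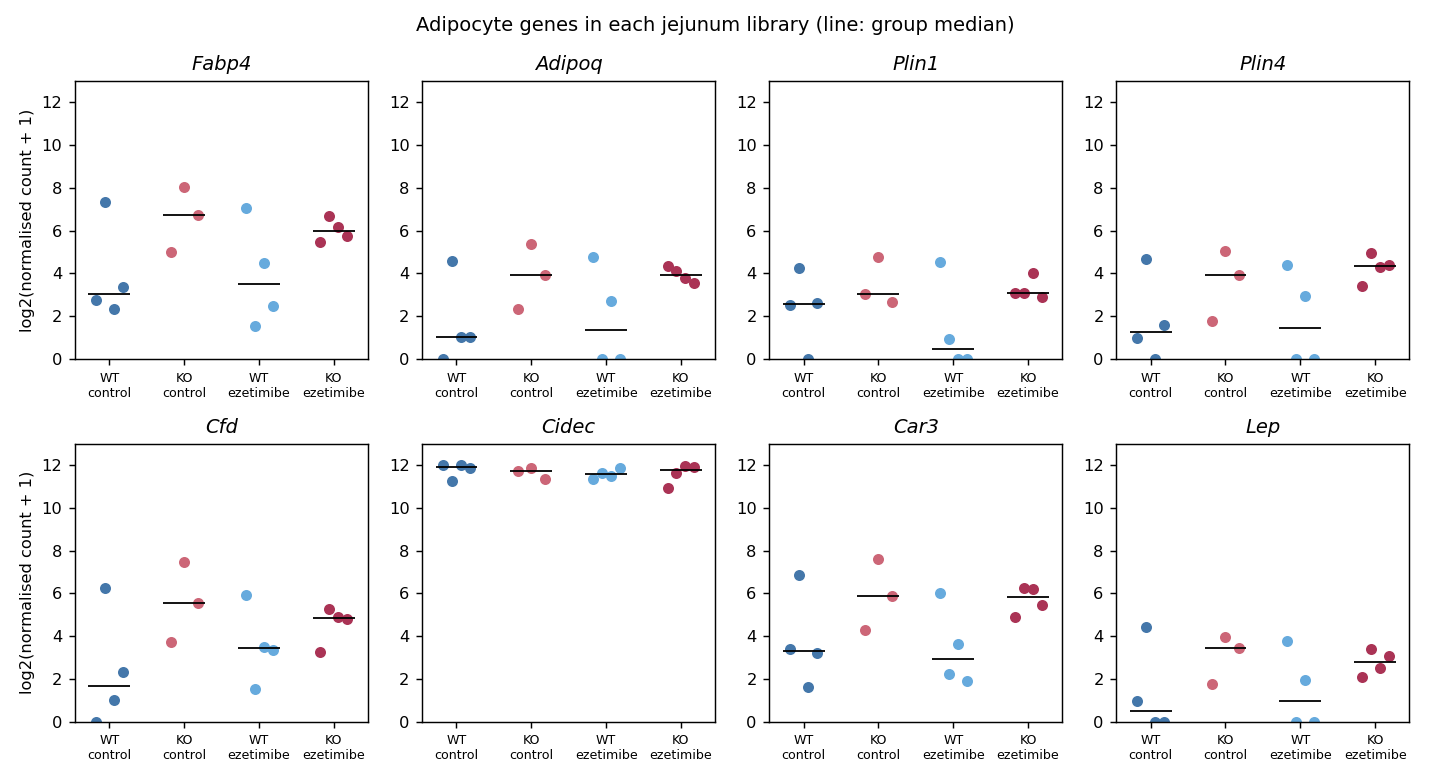
Level of each of the 8 genes in the 15 libraries, as log2 of the normalised count plus 1, by group; each point is 1 library and the line is the group median. In 7 of the genes 1 library of each WT group lies well above the rest of its group, while Cidec is near the same level in every library.

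Cidec went against the label of an adipocyte gene in these samples in both its level and its pattern. Across the 15 libraries the 21 pairs among the other 7 genes had a Pearson r of 0.667 to 0.970 on log2 values, with a median of 0.920, and with the group means removed the median was 0.895. Cidec had r values of -0.493 to -0.210 with the 7. These are descriptions over 15 libraries whose points share depth and size factor.

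The 7 genes without Cidec were therefore also summed per library. The sum was 22.0, 441, 8.24 and 29.5 normalised counts in WT and 77.9, 744 and 253 in KO on control diet, and 338, 8.45, 58.5 and 16.7 in WT and 121, 278, 225 and 167 in KO on ezetimibe. The highest library thus held 90.2 times the lowest. By genotype the median was 25.8 in the 8 WT libraries and 225 in the 7 KO libraries. The 6 lower WT libraries, at 8.24 to 58.5, were all below the lowest KO library, at 77.9. The remaining 2, at 338 and 441, were above 6 of the 7 KO libraries. The 6 were taken apart by these same sums, so their order against KO is not a test of genotype.

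In reads, the 7 genes together had 8 reads in the lowest library, WT replicate 3 on control diet, or 0.531 CPM (reads per 1000000 recovered reads; exact 95% binomial interval 0.229 to 1.05). In the highest, KO replicate 2 on control diet, they had 822 reads, or 49.2 CPM (45.9 to 52.6). The 2 high WT libraries stood at 30.8 CPM (28.2 to 33.7) on control diet and 22.3 CPM (19.9 to 24.9) on ezetimibe. These intervals cover counting error only. Those of the high WT libraries did not meet those of the other 6 WT libraries, of which the highest was 3.78 (2.90 to 4.85). That highest one, WT replicate 3 on ezetimibe, had an interval that met that of the lowest KO library. The latter, KO replicate 1 on control diet, was at 4.97 CPM (4.03 to 6.07).

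**Figure D2:**
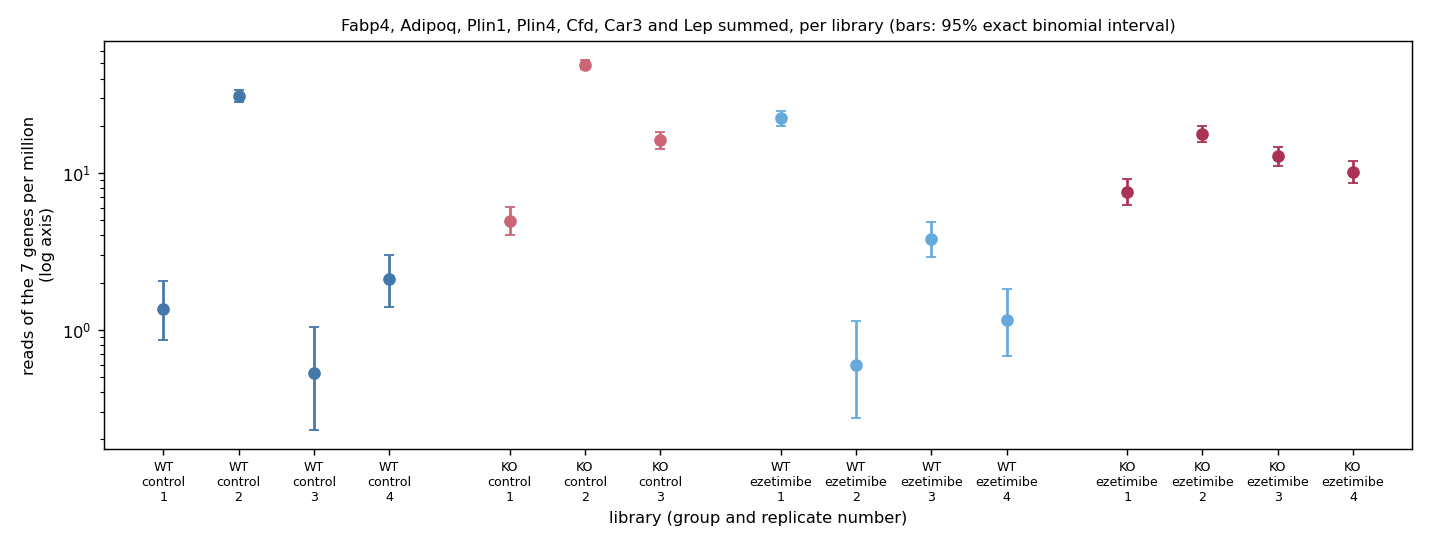
Reads of the 7 genes without Cidec in CPM, on a log axis, for each library; bars are exact 95% binomial intervals, which cover counting error only. WT control 2 (30.8) and WT ezetimibe 1 (22.3) lie within the range of the KO libraries (4.97 to 49.2), and the other 6 WT libraries lie at 0.531 to 3.78.

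The makeup of the 7-gene sum was compared where it could be measured. In the 10 libraries with at least 50 reads of these genes, Fabp4 gave 31.6% to 41.9% of the reads (median 36.6%), Car3 19.1% to 32.6% (24.7%) and Cfd 7.08% to 23.5% (16.5%). Adipoq gave 5.14% to 15.9%, Plin4 3.13% to 12.1%, Plin1 0% to 9.38% and Lep 1.95% to 4.84%. Fabp4 was 36.8% in WT replicate 2 on control diet and 35.2% in KO replicate 2, but other genes differed more: Adipoq was lowest in that WT library and highest, at 15.9%, in KO replicate 1 on ezetimibe, where Cfd was lowest. Differences in these shares between libraries were not tested.

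Spread within groups set these 7 genes apart from most others. The within-group SD of the log2 value was 1.94 for Cfd, rank 20 of the 14299 genes tested, 1.89 for Fabp4 (rank 24), 1.75 for Plin4 (rank 50), 1.74 for Adipoq (rank 52), 1.71 for Car3 (rank 54), 1.56 for Lep (rank 80) and 1.55 for Plin1 (rank 82). The median over all tested genes was 0.258, and Cidec, at 0.348, was at rank 4945. Spread depends on level, and the median SD of genes with a similar mean was higher for the low members. It was 0.745 for Lep, 0.625 for Plin1, 0.543 for Adipoq and 0.537 for Plin4. For Cfd, Car3 and Fabp4 it was 0.398, 0.353 and 0.319, and for Cidec 0.178, below its own SD. All 8 genes passed the filter (10 or more normalised counts in 3 or more libraries); Lep and Plin1 passed only through their few highest libraries.

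None of the 8 genes was called for KO against WT on control diet at an adjusted p under 0.05 by limma, against 0.371% of all tested genes. At an unadjusted p under 0.05, limma had 2 of the 8, Fabp4 and Cfd, where 14.7% of all genes were, and edgeR and DESeq2 on recovered reads had 0 of 8 (14.9% and 15.1% of all genes). By limma 7 of the 8 had a log2 fold change above 1, which 0.497% of all genes had. This count depended on the scale: it was 5 by edgeR (0.483% of all genes) and by DESeq2 (0.518%), without Plin1 and Lep, and 4 with a pseudocount of 5. The median of the 8 was 1.96 by limma, with that of all genes at -0.01, and 1.26 by edgeR. The 7 genes without Cidec varied together (median r of 0.920 over their 21 pairs) and had within-group SDs of 1.55 to 1.94. Their counts are therefore not separate results to set against the share of all genes, here and in the comparisons below.

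On ezetimibe limma again called 0 of 8 for KO against WT, with 0.00699% of all genes called. At an unadjusted p under 0.05 there were 2 of 8, Plin4 and Car3 (16.4% of all genes), and 0 by edgeR (16.3%) and DESeq2 (17%). All 8 log2 fold changes were above 0, and by limma 6 were above 1 (0.566% of all genes), with a median of 1.98. By edgeR and DESeq2 only Plin4 and Car3, 2 of the 8, were above 1 (0.734% and 0.762% of all genes), the median was 0.74 and 0.72, and a pseudocount of 5 left 4 of the 8 above 1. The authors' deposited tables of KO against WT, which list 424 genes for the control diet and 72 for ezetimibe, held none of the 8.

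The average of both within-diet differences, a comparison added after the values were seen and made from the same libraries, gave limma log2 fold changes of 1.52 to 2.38 for the 7 genes, each above 1 (0.252% of all genes), and -0.05 for Cidec. By edgeR the 7 were at 0.67 to 1.40 and by DESeq2 at 0.69 to 1.41, with 5 above 1 (0.322% and 0.336% of all genes); Fabp4 was at 1.13 and 1.14. None of the 8 was called (limma adjusted p 0.104 to 0.89), with 4.04% of all genes called. At an unadjusted p under 0.05 there were 6 of the 8, against 22.2% of all genes, and 0 by edgeR (22.2%) and DESeq2 (22.5%). Car3 passed when WT replicate 2 on control diet was left out (2.72, adjusted p = 0.0463), and Fabp4 when WT replicate 1 on ezetimibe was left out (2.91, adjusted p = 0.049). These are the 2 high WT libraries, and both had been chosen for leaving out only as part of leaving out each library in turn.

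Ezetimibe went with no detectable difference in these genes within either genotype. In WT, limma called 0 of 8 (0.217% of all genes), 0 of 8 had an unadjusted p under 0.05 (5.08% of all genes), and 1, Cfd, had a log2 fold change above 1 (0.622%). The log2 fold changes in WT were -0.98 to 1.17, all with an adjusted p of 0.999. In KO it also called 0 of 8 (0.727% of all genes), 0 of 8 had an unadjusted p under 0.05 (22.9%), and 0 had a log2 fold change above 1 (1.84%), with values of -1.03 to 0.68 and adjusted p-values of 0.662 to 0.982. At an unadjusted p under 0.05 there were also 0 of 8 by edgeR and DESeq2, in WT (5.53% and 5.42% of all genes) and in KO (23% and 23.3%). The intervals were wide: for Fabp4 in WT the 95% interval of the log2 fold change was -2.46 to 2.35, so that neither a several-fold increase nor a decrease lay outside it.

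The interaction of genotype with ezetimibe, which asks whether the genotype difference varied with the diet, was called for 0 of the 8 genes by limma and for 0% of all genes. Its values were -2.20 to 0.75, none above 1 (2.23% of all genes), with adjusted p-values of 0.743 to 0.988. At an unadjusted p under 0.05 there were 0 of 8 by limma (7.02% of all genes), edgeR (7.23%) and DESeq2 (7.22%).

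**Figure D3:**
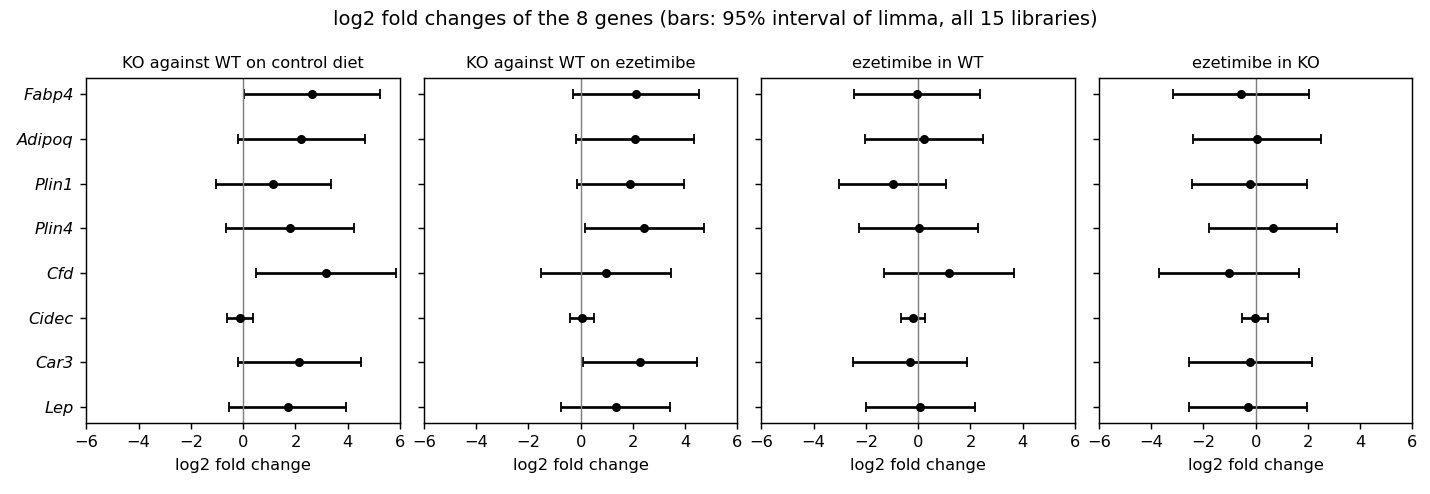
Log2 fold changes of the 8 genes in 4 comparisons with 95% intervals from limma fitted on all 15 libraries. The 7 genes without Cidec lie at 1.15 to 3.18 and 0.98 to 2.44 for KO against WT, with intervals several units wide, and on either side of 0 for ezetimibe; the Cidec intervals are the shortest. By edgeR the 7 genes lie at 0.60 to 1.90 and 0.35 to 1.58 for KO against WT (not plotted).

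Other genes known from adipocytes fell into those that varied with the 7 and the many that did not. A list of 24 such genes had 23 in the table and 16 that passed the filter. Only Lpl, the lipase that adipocytes secrete to take up fat from lipoproteins, had a Pearson r of at least 0.7 with the mean standardised log2 level of the 7 genes (r = 0.935, 15 libraries). Its counts in WT were 3.82, 84.5, 9.27 and 18.3 on control diet and 76.0, 4.70, 6.60 and 7.43 on ezetimibe. In KO they were 19.5, 160.2 and 56.3 on control diet and 20.3, 59.0, 56.0 and 29.8 on ezetimibe. The same 2 WT libraries were the high ones, and the difference between genotypes, 1.76 ± 0.968 on control diet and 1.58 ± 0.896 on ezetimibe, was not called (limma adjusted p = 0.42 and 0.36); by edgeR it was 1.41 and 0.82 (adjusted p = 0.524 and 0.659).

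The median r of the 16 genes was 0.236. Several that adipocytes and enterocytes both use were abundant and had lower r values: Gpd1, which makes the glycerol backbone of fat, 0.654; the triacylglycerol lipase Pnpla2 0.476; the hormone-sensitive lipase Lipe 0.457; the adipocyte regulator Pparg 0.242; the glycerol channel Aqp7 0.231; Pck1, an enzyme of glycerol synthesis, -0.15; the fatty acid transporter Cd36 -0.207; and Mgst1, the most abundant of the list, -0.218. Of the 7 markers too low to be tested, 4 had their highest value in KO replicate 2 on control diet, the library with the highest 7-gene sum: Thrsp at 19.0, Retn at 15.4, Trarg1 at 13.6 and Adrb3 at 9.95 normalised counts. The other 3 had it elsewhere, Slc2a4 in KO replicate 3 on control diet (7.58), Sncg in WT replicate 1 on ezetimibe (4.22) and Adig in WT replicate 1 on control diet (3.82).

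**Figure D4:**
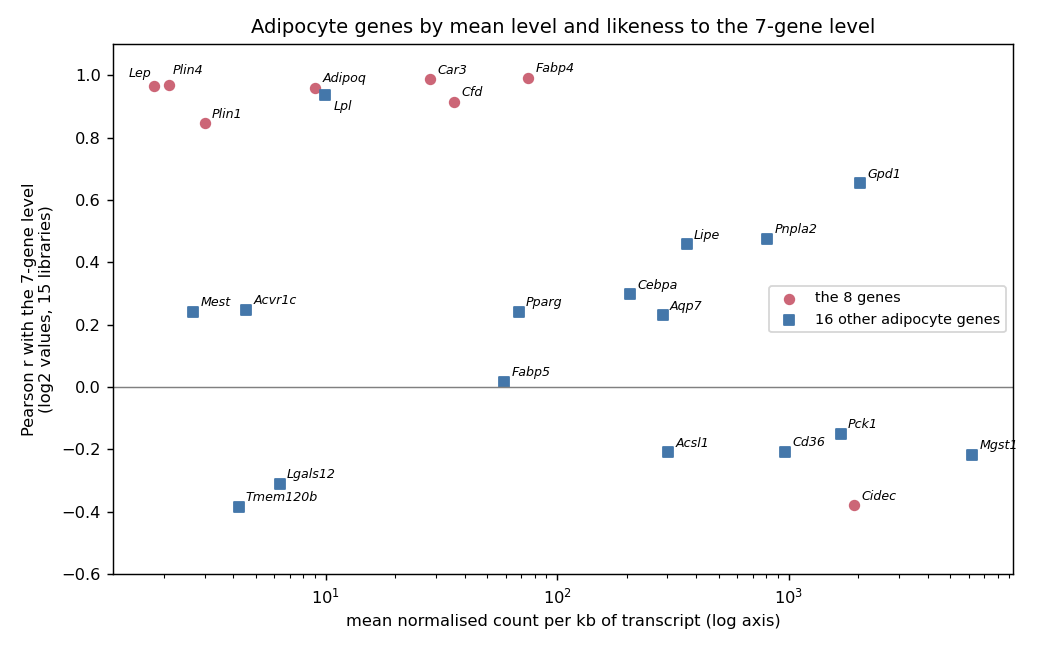
Mean normalised count per kb (log axis) and Pearson r with the mean standardised level of the 7 genes without Cidec, for the 8 genes (circles) and 16 other adipocyte genes (squares), over 15 libraries; for the 7 genes the level includes the gene itself. Lpl (0.935) lies with the 7, and Cidec lies with the abundant genes at low or negative r.

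Within this list limma and edgeR called 0 of 16 genes for KO against WT on either diet. By limma 2 and 5 had an unadjusted p under 0.05 (14.7% and 16.4% of all genes). DESeq2 called 0 on control diet and 1, Pnpla2, on ezetimibe. Over both diets limma called 2, with 4.04% of all genes called. Pnpla2 was higher in KO (0.40 ± 0.0816, adjusted p = 0.0232) and Lgals12, a galectin of lipid droplets, was lower (-1.18 ± 0.28, adjusted p = 0.0326). Pnpla2 lost its call without WT replicate 2 on ezetimibe or KO replicate 1 on control diet (13 of 15 fits kept it). Lgals12 lost it without WT replicate 2 or 4 on either diet, KO replicate 1 or 3 on control diet or KO replicate 4 on ezetimibe (8 of 15 kept it). Of the receptors for the members' hormones, Adipor1, an adiponectin receptor, was higher in KO on control diet (0.38 ± 0.0751, limma adjusted p = 0.047). Its normalised counts there were 2598 to 2703 in KO and 1959 to 2093 in WT. Only 1 of 7 limma fits without a library, that without WT replicate 1 on control diet, kept this call. It was not made by edgeR (adjusted p = 0.0539) but was made by DESeq2 (adjusted p = 6.996e-05), which called 452 of all genes. Over both diets Adipor1 was at 0.25 ± 0.0512 (limma adjusted p = 0.0232), a call lost without WT replicate 2 or KO replicate 4 on ezetimibe or KO replicate 1 on control diet. With all libraries edgeR and DESeq2 made it too (adjusted p = 0.0253 and 3.42e-05). Adipor2 was at a mean of 7918 with no call, and the leptin receptor Lepr was at no more than 5.09 in every library.

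Of 13 tested genes of lipid droplets and lipolysis, limma called 0 on control diet, 0 on ezetimibe and, over both diets, Pnpla2. At an unadjusted p under 0.05 limma had 1 on control diet and 4 on ezetimibe (14.7% and 16.4% of all genes). DESeq2 called Pnpla2 on ezetimibe, and Pnpla2 and Dgat1 over both diets, with 78 and 1236 of all genes called. The most abundant, Dgat1, which makes triacylglycerol, had limma log2 fold changes of 0.18 on control diet and 0.15 on ezetimibe. Of 14 relatives of the members in the table, 9 were above the member of their family per kb and 5 below. Of those above, Fabp2 was 3915-fold above Fabp4, Fabp1 940-fold above Fabp4, Plin3 1184-fold and Plin2 274-fold above Plin1, and Car4 53.0-fold above Car3. Those below were Fabp5 (59.2 normalised counts per kb), Plin5 (0.844), Cfi (10.2), Cidea (0.861) and Cideb (876), the relative that loads lipoproteins, which Cidec exceeded 2.20-fold. Of the 12 tested relatives limma and edgeR called 0 for KO against WT on either diet, and DESeq2 called 1, Fabp1 on control diet. Over both diets DESeq2 called 1, Fabp6, and limma and edgeR called 0. At an unadjusted p under 0.05 limma had 1 and 3 of them (14.7% and 16.4% of all genes). The median r of the 12 relatives with the level of the 7 genes was 0.168.

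Markers of other cells that accompany fat were looked at beside the members. For brown adipocytes, Ucp1, Cox8b, Elovl3 and Zic1 were not in the table and Cidea, Dio2 and Otop1 had at most 3 reads in every library. The other 2 of that list were abundant, Cox7a1, a mitochondrial subunit, at a mean of 1503 (r = 0.584 with the 7-gene level) and the coactivator Ppargc1a at 805 (r = 0.221). Of the 10 genes listed for the mesothelium, which covers the mesentery, 7 did not pass the filter; among them Wt1 and Nkain4 had at most 3 reads everywhere, and the highest of any was 11.8, for Upk3b. The other 3 did: Upk1b was at 59.9 to 110 (r = 0.0587), and Krt19 and Cldn15, which the gut epithelium also makes, had means of 10525 and 8570 (r = 0.136 and 0.349). Of the skeletal muscle list, which bears on Car3, Ckm, Myh1, Myh2 and Myh4 were not in the table. Tnnt3 and Pvalb had at most 3 reads in every library. Mylpf was at 33.5 to 72.4 (r = -0.119), and Acta1 ranged from 188 to 6858 with an r of 0.04 with the 7-gene level. Of the 10 capillary genes 3 passed the filter, Pecam1 at 17.0 to 47.2, Rgcc at 1.17 to 17.3 and the water channel Aqp1 at a mean of 7792, and the other 7 were at most 27.2, with Cdh5 at most 9.65.

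Over whole lists, no gene of the mesothelial (3 tested), capillary (3), lymphatic (3), smooth muscle (6), fibroblast (6), skeletal muscle (2), pancreatic acinar (1), enterocyte (12), B cell (7) or macrophage (8) markers was called by limma or edgeR for KO against WT on either diet. By limma 5 of these 51 genes on control diet and 7 on ezetimibe had an unadjusted p under 0.05. Of all genes 14.7% and 16.4% did. DESeq2 called 3 of the 51 (Aqp1, Fabp1 and Clps) and 1 (Alpi), with 452 and 78 of all genes called. The median r of these lists with the 7-gene level ran from -0.285 for the acinar gene Clps to 0.357 for fibroblasts, whose highest was 0.502 for the matrix gene Dcn. B cell and lymph node markers had the opposite sign: all 7 tested had negative limma log2 fold changes on both diets (medians -1.63 and -1.78). At an unadjusted p under 0.05 limma had 0 of these 7 on control diet and 1 on ezetimibe (14.7% and 16.4% of all genes). Over both diets, the comparison added later, it had 5 of the 7 (22.2% of all genes). All 7 were negative there, with a median of -1.75, and 0 were called. The summed level of this list was 36.3 to 634 in WT (median 321) and 17.0 to 396 in KO (median 47.9). Ccl19 had no more than 3 reads in every library. Of the enterocyte list, 12 of 12 were above 0 on ezetimibe (median 0.29) and 7 of 12 on control diet. The part of these cells in the members' levels was not tested. Outside the genotype comparisons, the macrophage gene C1qc was lower with ezetimibe in KO (-1.77 ± 0.376, limma adjusted p = 0.0479), with 0.727% of all genes called. This call was kept in 2 of 7 fits without a library, those without KO replicates 1 and 4 on ezetimibe. C1qc was also called by edgeR (adjusted p = 0.0499). Of the 8 macrophage genes 1 was above 0, and 6 had an unadjusted p under 0.05 by limma (22.9% of all genes). DESeq2 called 9 of the 51 genes, among them C1qa, C1qb, C1qc and Csf1r, and 1155 of all genes.

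Among the 14291 tested genes outside the 8, likeness was measured as the Pearson r of the log2 value with the mean standardised level of the 8 over the 15 libraries. There was 1 gene at 0.9 or above, Lpl (0.942), 10 at 0.8 or above and 58 at 0.7 or above. After Lpl came Pfkl (0.884), the liver type of the glycolytic enzyme phosphofructokinase; Prkar2b (0.855), a regulatory subunit of protein kinase A; the uncharacterised Gm42688 (0.844); Bnip3 (0.843), a mitophagy receptor; Serf2 (0.840); and Sparc (0.833), a matrix protein. They were followed by the glycolytic enzyme Aldoa (0.820), AW146154 (0.819), 2310016G11Rik (0.806), P4ha1 (0.787), which hydroxylates collagen, and the G protein subunit Gnai1 (0.783). Among the least like were Accs (-0.816), Gm49590 (-0.790) and Trim6 (-0.769).

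These genes ranged widely in level. Pfkl was between 341 and 914, with medians of 443 in WT and 772 in KO, and Sparc between 7.64 and 63.6, with its highest value in WT replicate 2 on control diet. Without the 2 libraries farthest from the median of the 8-gene level, KO replicate 2 on control diet and WT replicate 2 on ezetimibe, r was 0.913 for Lpl, 0.830 for Pfkl, 0.802 for Sparc and 0.712 for Aldoa. With group means removed, r with the 7-gene level was 0.917 for Lpl and 0.836 for Pfkl.

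**Figure D5:**
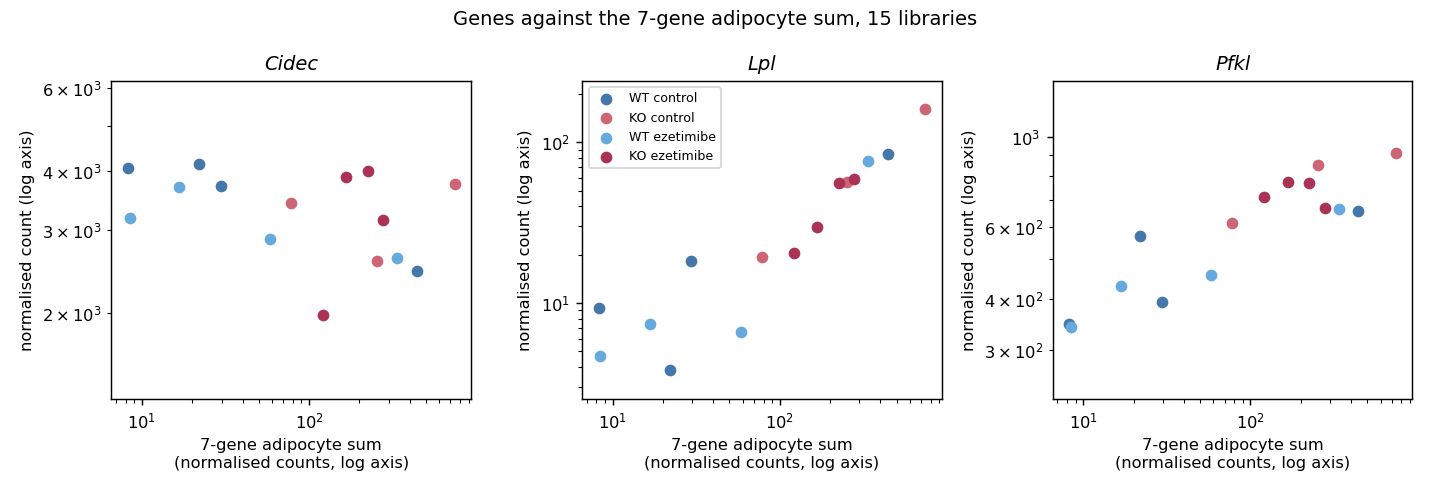
Normalised counts of Cidec, Lpl and Pfkl against the summed normalised counts of the 7 genes without Cidec, both on log axes; each point is 1 of the 15 libraries, coloured by group. Lpl spans 3.82 to 160.2 and Pfkl 341 to 914 along the sum, while Cidec stays between 1980.1 and 4142.

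Since the level of these genes differed between libraries, the comparisons across all genes were refitted with the mean log2 level of the 8 genes as a covariate. On control diet the number of genes called for KO against WT went from 53 to 31, of which 20 were shared, and over both diets from 578 to 103, of which 78 were shared. For ezetimibe in KO it went from 104 to 46, all of them among the 104, and for ezetimibe in WT from 31 to 36, with 30 shared. The covariate was at 2.24 to 6.21 in WT (median 3.04) and 4.21 to 6.77 in KO (median 5.43), ranges that overlap, and the standard errors became wider by a median factor of 1.14 on control diet and 1.25 over both diets. For KO against WT on control diet, the sterol-responsive cholesterol exporter Abca1 was at -1.64 without and -1.62 with the covariate (limma adjusted p = 0.0022 and 0.0111). Gramd1c was at -3.28 and -3.13. Gramd1b moved more, from -1.44 to -1.22 on control diet (limma adjusted p = 0.0022 and 0.0111) and from -1.13 to -0.92 over both diets.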

How the data were processed

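Frozen tissue gave total RNA by TRIzol, and NEBNext Ultra II libraries were sequenced, per the labels' protocols. The submitters' processing notes name mm10, STAR 2.6.0c, DESeq2 and FastQC; for the read counter, its annotation and its use of strand the sources used here give nothing. The authors deposited a table of DESeq2-normalised counts, used as a signal, per the file headers. The 2 tables of the authors' comparisons hold log2 fold changes, a p-value, a test score, a mean signal and, as a ratio, a fold change, per the file headers, and served here only to look up the 8 genes.

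All values above 0 were whole multiples of 1 read within a tolerance of 0.001 (100% per library), so whole reads were recovered as counts from the deposited signal. The main test was limma 3.58.1 (R 4.3.3) on log2(value + 1), so that fold changes are on that scale, where the pseudocount shrinks ratios between low values but means are taken over log values; for the 7 genes without Cidec the KO against WT values were larger than those of the count models. It was fitted on all 15 libraries and on the 14299 genes that reached 10 normalised counts in 3 or more libraries, with Benjamini-Hochberg adjustment at 0.05. edgeR 4.0.16 and DESeq2 1.42.0 on the recovered reads, TMM scaling, pseudocounts of 0.5 and 5, no filter, a mean of at least 50, the compared groups alone, a replicate block and leaving out each library were alternatives. Reads were simulated for KO against WT on control diet with 14106 genes and 200 changed genes drawn at random. Limma recovered 11.9% of 1.5-fold, 59.7% of 2-fold and 93.9% of 4-fold changes, with 8 false calls. The median within-group SD of all tested genes was 0.258 on the log2 scale, against 1.55 to 1.94 for the 7 genes without Cidec. These rates therefore do not describe those 7 genes.

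GENCODE M21 (GRCm38, which is mm10) held 26825 of the 26844 identifiers and gave coordinates and the longest coding transcript. Named were the 8 genes, for each other list its called genes, up to 4 of smallest p and its most abundant gene, the 12 most and 4 least like genes (1 of the latter is not reported here), and Abca1, Gramd1b and Gramd1c as checks of the labels. The 8 genes and all lists were chosen with earlier results of these data known.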

Additional observations from a re-analysis of the deposited data

Results flagged for a closer look

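In groups of 4 libraries, 13 of 27 tested sets of normalised counts had 1 library set apart. Its gap to the nearest other took up more of the group's range than Dixon's critical value allows. Chance flags about 1 in 20 groups only where values are normally distributed, and these counts were skewed. The flags are for normalised counts, not for the log2 values used in the tests, and may depend on that scale. The genes also vary together, so these are not 13 separate events. In WT on control diet, replicate 2 stood apart for Fabp4 (163 against 9.17 in the next library), Adipoq (22.7 against 1.03), Plin4 (24.5 against 2.04), Cfd (75.4 against 4.08), Car3 (117 against 9.55), Lep (20.9 against 0.955) and the sum of the 7 genes without Cidec (441 against 29.5). In WT on ezetimibe, replicate 1 stood apart for Fabp4 (133 against 21.7), Plin1 (22.2 against 0.939), Cfd (59.1 against 10.4), Car3 (64.4 against 11.3) and the same sum (338 against 58.5). In KO on ezetimibe, replicate 3 stood apart for Plin1 (15.2 against 7.50). KO on control diet has 3 libraries and was not tested.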

How the results depend on the processing

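The 8 genes gave 860 log2 fold changes over all alternatives, of which 782 kept their direction and stayed uncalled, 76 changed sign without a call and 2 became called: over both diets Car3 without WT replicate 2 on control diet (2.72, adjusted p = 0.0463; 0.0463 to 0.197 over all left-out libraries) and Fabp4 without WT replicate 1 on ezetimibe (2.91, adjusted p = 0.049; 0.049 to 0.21). The number of the 8 genes called over both diets was thus 0 to 1. Without 1 of those 2 WT libraries Cfd, Adipoq, Plin1, Plin4 and Lep had limma adjusted p-values over both diets as low as 0.056, 0.0585, 0.0643, 0.0709 and 0.0855, uncalled. Over all left-out libraries these reached 0.299, 0.23, 0.356, 0.242 and 0.383. Leaving out a high WT library lowers the WT mean, so the low ends are no separate evidence. With all libraries the lowest adjusted p was 0.1027 (Car3 over both diets, pseudocount 0.5). For the 7 genes without Cidec, no alternative changed the sign of KO against WT. Low reads limit Lep, Plin1, Plin4 and Adipoq; DESeq2 gave no adjusted p for up to 4 of them, and a mean of at least 50 left only Fabp4 and Cidec. The comparison over both diets, the covariate without Cidec and the repeats for Lpl and the called list genes were added after seeing the data; for leaving out 1 library in WT or KO, the fit over all groups was kept.

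Leaving out each library in turn, with the cause of sign changes not tested, the log2 fold changes that crossed 0 spanned these ranges. For Cidec they were -0.30 to 0.026 on control diet, -0.083 to 0.26 on ezetimibe and -0.14 to 0.063 over both diets for KO against WT. For ezetimibe in WT they were Adipoq -0.74 to 1.20, Car3 -1.18 to 0.72, Fabp4 -1.11 to 1.08, Lep -0.71 to 1.11 and Plin4 -0.84 to 0.97. For ezetimibe in KO they were Adipoq -0.71 to 0.82, Car3 -1.03 to 0.63, Cidec -0.19 to 0.19, Fabp4 -1.37 to 0.16, Lep -0.92 to 0.16, Plin1 -0.64 to 0.40 and Plin4 -0.22 to 1.42. For the interaction they were Adipoq -1.14 to 0.80, Car3 -0.93 to 0.96, Fabp4 -1.65 to 0.54, Lep -1.39 to 0.42 and Plin4 -0.29 to 1.52. Other settings reversed Plin4 (-0.0848 with a pseudocount of 0.5, -0.15 by edgeR, -0.062 by DESeq2), Fabp4 (0.018, pseudocount 5), Lep (-0.0390 with a pseudocount of 5, -0.61 by edgeR, -0.53 by DESeq2) and Cfd (-0.071 by edgeR, -0.0062 by DESeq2) for ezetimibe in WT; Adipoq (-0.0347 with a pseudocount of 5, -0.42 by edgeR, -0.41 by DESeq2) and Cidec (0.0041, DESeq2) for ezetimibe in KO; and Plin1 (-0.15 by edgeR, -0.20 by DESeq2) and Lep (0.13 by edgeR, 0.021 by DESeq2) for the interaction.

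Counts over all genes moved far more, and the cause was not tested. For KO against WT on control diet the 53 genes became 17 with a pseudocount of 5, 12 without a filter, 3 with the compared groups alone, 12 by edgeR, 452 by DESeq2, 31 with the covariate (32 without Cidec in it), and 3 (without KO replicate 1 on control diet) to 126 (without WT replicate 1) when 1 library was left out. On ezetimibe the 1 gene became 3 with the compared groups alone and 78 by DESeq2. For ezetimibe in WT the 31 became 93 by DESeq2 and 17 to 34 without 1 library. For ezetimibe in KO the 104 became 54 without a filter, 330 with a mean of at least 50, 16 with the compared groups alone, 1155 by DESeq2, 46 with the covariate (42 without Cidec), and 5 to 456 without 1 library. For the interaction the 0 became 5 by DESeq2 and 0 to 1 without 1 library. Over both diets the 578 became 320 without a filter, 1236 by DESeq2, 103 with the covariate (111 without Cidec), and 33 to 1202 without 1 library. The mean sum of the 8 genes, 3722, 3615, 3203 and 3461 in WT and KO on control diet and WT and KO on ezetimibe, became 125, 358, 105 and 198 without Cidec.

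Replicate numbers were not treated as pairs: deviations from group means correlated at -0.242 to 0.331 between libraries of the same number (median 0.125, 21 pairs) and at -0.405 to 0.432 between others (median -0.0253, 63 pairs). With a replicate block none of the 8 genes was called; Car3 for ezetimibe in KO became 0.0504 and the Adipoq interaction 0.16. The counts over all genes under the block were 231 and 6 for KO against WT on control diet and ezetimibe, 54 and 1915 for ezetimibe in WT and KO, and 922 over both diets.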
